A study of Mus musculus with 6 samples.

Results

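Matrix metalloproteinases (MMPs), the related ADAMTS proteases, the protease-like ADAMTSL proteins and the tissue inhibitors of metalloproteinases (TIMPs) were examined in bone marrow mesenchymal stromal cells (BM MSCs). The members were all genes of the count table whose symbol is Mmp, Timp, Adamts or Adamtsl followed by a number, which gave 51 of 56980 genes. These were 23 *Mmp*, 4 *Timp*, 19 *Adamts* and 5 *Adamtsl* genes. The symbols set the membership within these families, and the families themselves were picked for description with earlier results of these data known, so that their share of changed genes is no independent evidence. Both groups of recipients were female mice that underwent ovariectomy (OVX) at 8 weeks of age, were pretreated with antibiotics for 1 week and then received fecal microbiota transplantation (FMT) for 8 weeks. Donors were sedentary osteoporotic mice for the TranspCtrl group (3 samples, FMT-Ctrl in the labels) and exercised osteoporotic mice for the TranspExer group (3 samples, FMT-Exer in the labels). Ovariectomy and antibiotics were thus shared by both groups, and the strain was not given in the sources used here. Marrow was flushed from femurs and tibias and cultured for 7 days with repeated washes, and no sorting step was described. The labels do not say how many animals each sample represents, so p-values measure the spread between these samples, which may be technical.

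MMPs are zinc-dependent endopeptidases that are made as inactive zymogens and, between them, cleave collagens, gelatin, elastin and many other extracellular proteins. ADAMTS proteases cleave the large proteoglycans, trim procollagens or act on microfibrils and von Willebrand factor, while ADAMTSL proteins share their ancillary domains but lack the catalytic domain. TIMPs bind the active site of MMPs, and TIMP3 also inhibits several ADAMTS and ADAM proteases. In bone, MMP9, MMP13 and MMP14 are known for their roles in matrix turnover and in the removal of cartilage and bone matrix.

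Total counts ranged from 17647682 to 21319228 per sample, and 3 counts, the floor used here, equalled 0.141 to 0.17 CPM (counts scaled to library size, here with TMM factors). The labelled cell type was checked with 8 MSC markers, all of which had counts in both groups, with a summed level of 11330 to 19120 CPM in TranspCtrl and 12220 to 13460 CPM in TranspExer. Most of this sum came from *Col1a1* and *Col1a2*. *Col1a1* had 4563, 9951 and 9613 CPM in TranspCtrl and 6795, 7164 and 7708 CPM in TranspExer. The sums of the groups overlapped only through TranspCtrl replicate 1, and the other TranspCtrl samples were above all TranspExer samples. The 6 other MSC markers summed to 1636, 1818 and 1775 CPM in TranspCtrl and 1355, 1346 and 1373 CPM in TranspExer, without overlap. *Cxcl12*, the chemokine of niche stromal cells, carried most of this smaller sum, with 1396 ± 69.3 CPM and 1016 ± 15.35 CPM (SD, n = 3 each). *Pdgfrb*, a growth factor receptor of perivascular cells, was the next in level and was the marker that rose, from 203 ± 22.3 CPM to 266 ± 17.65 CPM (SD, n = 3 each). Of the 8 markers 6 fell and 1 rose by the test used below, with a median log2 fold change of -0.54, and *Pdgfra* (-1.0028) and *Nt5e* (-1.08) passed both thresholds used below. Both are near the fold limit, and *Pdgfra* missed it without TranspCtrl replicate 2 (-0.97) or TranspExer replicate 1 (-0.9989), as did *Nt5e* without TranspExer replicate 3 (-0.995). Without TranspCtrl replicate 1, 7 MSC markers fell and 1 rose, with a median log2 fold change of -0.61. *Col1a1* was then among those that fell (-0.44, adjusted p = 1.54e-05 from edgeR, against -0.16 and 0.674 with all samples). Markers of other cells were also present, such as 8 macrophage markers with 8902 to 13770 CPM in TranspCtrl and 7012 to 7607 CPM in TranspExer. Summed endothelial markers had 200.2 to 235 CPM in TranspCtrl and 603 to 655 CPM in TranspExer, and summed B and plasma cell markers had 3634 to 6067 and 785 to 832 CPM. In a bulk sample, fewer cells of a type and less RNA per cell cannot be told apart. TranspCtrl replicate 1 stood apart from the other TranspCtrl samples. Its root-mean-square difference from them in log2 CPM was 0.51 and 0.489 over all tested genes, against 0.3 between replicates 2 and 3, and 0.407 and 0.444 over the tested members, against 0.216. Results that rest on this sample are therefore also given without it.

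Of the 51 members, 47 had a count in at least 1 sample and 35 passed the low-count filter of edgeR and were tested. The 16 others had at most 17 counts in any sample, and *Mmp7*, *Mmp20*, *Adamts18* and *Adamts19* had no count at all. In what follows, a gene is said to rise or fall in the TranspExer group when its adjusted p-value from edgeR was under 0.05, and to be a differentially expressed gene (DEG) when its fold change was in addition at least 2. Where 3 values are listed for a group, they stand in the order of replicates 1, 2 and 3, and SE is the standard error of a log2 fold change. By these rules 9 members rose, 11 fell and 15 did not pass. Upregulated DEGs were *Mmp15*, *Adamts7* and *Adamts15*, or 8.57% of tested members against 3.5% of all 15190 tested genes. Downregulated DEGs were *Mmp2*, *Mmp9*, *Mmp16*, *Timp3*, *Adamts6* and *Adamts16*, or 17.1% against 5.28%. In either direction the shares were 25.7% of members and 8.78% of all genes, and at the adjusted p-value alone 57.1% and 32.2%. The DEGs *Adamts15* and *Adamts16* passed the low-count filter only through the group where they were higher, which favours a call. Among the 25 tested members with a mean of at least 10 CPM, 20% were DEGs, against 4.5% of the 9675 genes at that level. The median log2 fold change of TranspExer over TranspCtrl (log2FC) was -0.09 for members and -0.02 for all genes, and the median absolute change 0.48 and 0.29. Sample groups did not overlap for 23 of the 35 members (65.7%, against 52.4% of all tested genes).

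**Figure D1:**
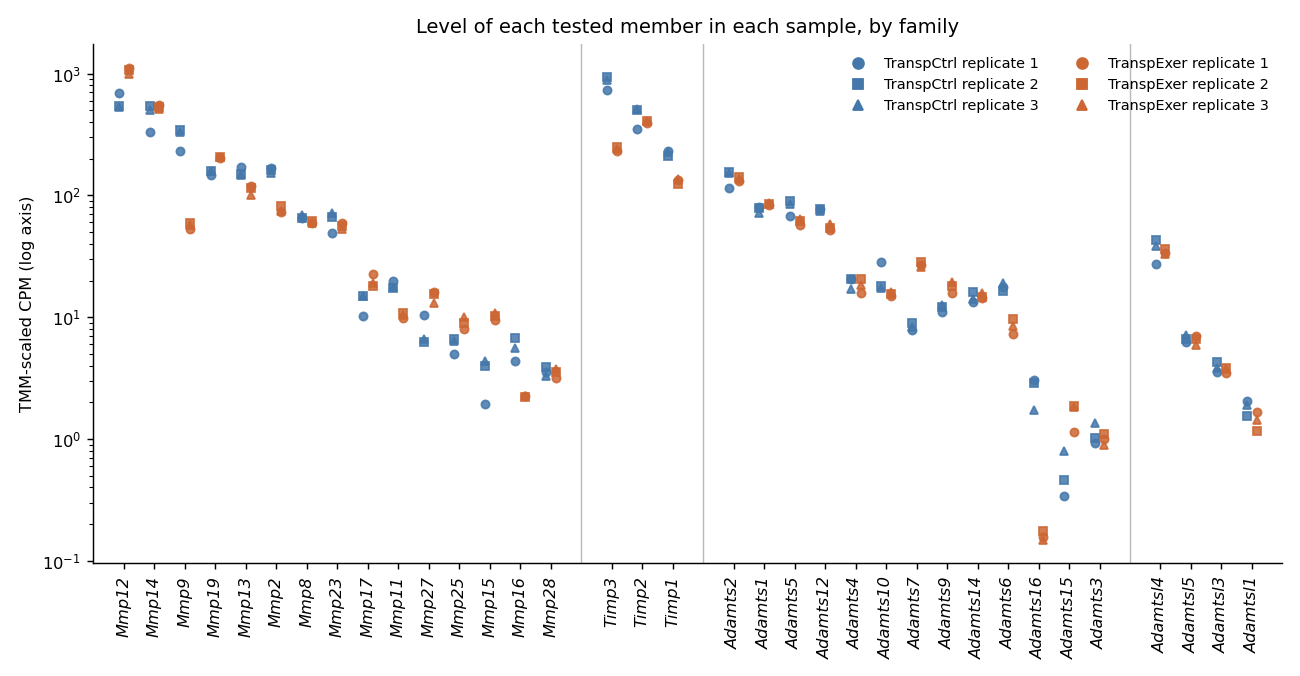
TMM-scaled CPM on a log axis for the 35 tested members, with 1 point per sample. TranspCtrl samples are blue and TranspExer samples orange, and the members of each family are ordered by mean level. *Mmp9* and *Timp3* are separated widely between the groups, and *Mmp14* and *Timp2* overlap.

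The summed TIMP level was lower in the TranspExer group. It was 1310, 1653 and 1619 CPM in TranspCtrl and 763, 779.9 and 788 CPM in TranspExer. Group means were 1528 ± 189 CPM and 777 ± 12.6 CPM (SD, n = 3 each), a log2 ratio of -0.98, and every TranspExer sample was below every TranspCtrl sample. *Timp3* (ENSMUSG00000020044), the matrix-bound inhibitor with the broadest range, fell the most of the 4 in CPM and, per length, from 378 ± 51.2 TPM to 104.5 ± 4.81 TPM (SD, n = 3 each). It lies at chr10:86300372-86349506 on the plus strand of GRCm38. *Timp3* had 729, 942 and 880 CPM in TranspCtrl and 233, 248 and 240 CPM in TranspExer. The groups were far apart, with a log2FC of -1.82 (SE 0.11, adjusted p = 5e-05 from edgeR), or 3.54-fold lower in TranspExer. Without TranspCtrl replicate 1 the log2FC was -1.92. *Timp3* shares 1733 exonic bases with *Syn3* on the opposite strand, and whether counting used strand is not given in the sources used here. *Syn3* had a mean count of 25.6, against 10960 for *Timp3*, and a log2FC of -0.90 (adjusted p = 0.0881). The lower MSC markers given above stand beside the differences of *Timp3* and *Mmp2*, and their part in them was not tested.

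*Timp1*, a soluble inhibitor that acts poorly on membrane-type MMPs, had 230.4, 209.5 and 226 CPM in TranspCtrl samples and 134, 124 and 136 CPM in TranspExer samples. It fell in the TranspExer group without reaching a fold change of 2 (log2FC -0.75, SE 0.08, adjusted p = 0.00047). *Timp2*, which inhibits MMPs and also helps MMP14 to activate the MMP2 zymogen, had 351, 502 and 513 CPM in TranspCtrl samples and 396, 408 and 411 CPM in TranspExer samples. These groups overlapped (log2FC -0.17, SE 0.14, adjusted p = 0.387). Without TranspCtrl replicate 1, *Timp2* fell by 0.33 on the log2 scale (adjusted p = 0.000115 from edgeR). *Timp4* had 2 counts in TranspExer replicate 3 and none in the other samples.

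Levels of different genes were compared per length, as TPM computed from the counts and the gene lengths in the table. On this scale *Timp1* was the most abundant TIMP in both groups, with 559 ± 22.2 TPM in TranspCtrl and 325 ± 14.9 TPM (SD, n = 3 each) in TranspExer. Of the summed TIMP level, *Timp3* held 31.6% ± 2.34 in TranspCtrl and 16% ± 0.715 (SD, n = 3 each) in TranspExer. *Timp2* held 21.4% ± 2.97 and 34.3% ± 0.85 (SD, n = 3 each), so the order of *Timp2* and *Timp3* was reversed between the groups. The ratio of *Timp3* to *Timp2* in TPM was 1.63, 1.47 and 1.35 in TranspCtrl and 0.462, 0.477 and 0.459 in TranspExer.

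The summed MMP level differed less. It was 1912, 2089 and 2025 CPM in TranspCtrl and 2312, 2256 and 2131 CPM in TranspExer, a log2 ratio of 0.15. In TPM the sums overlapped, with 1333, 1521 and 1441 in TranspCtrl and 1524, 1533 and 1447 in TranspExer. What differed was the make-up of the family. *Mmp12* held 24.2% ± 5.24 of the MMP sum in TPM in TranspCtrl and 40.3% ± 0.709 (SD, n = 3 each) in TranspExer, whereas *Mmp9* held 13.9% ± 2.2 and 2.44% ± 0.193 (SD, n = 3 each). *Mmp14*, with 25.7% ± 4.8 and 28.1% ± 0.227 (SD, n = 3 each), was the other major component. The ratio of summed MMP to summed TIMP in TPM was 1.21, 1.22 and 1.16 in TranspCtrl and 2.38, 2.37 and 2.14 in TranspExer. With *Mmp12* left out it was 0.844 to 0.962 in TranspCtrl and 1.29 to 1.42 in TranspExer. These sums and ratios describe transcripts and carry no test.

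**Figure D2:**
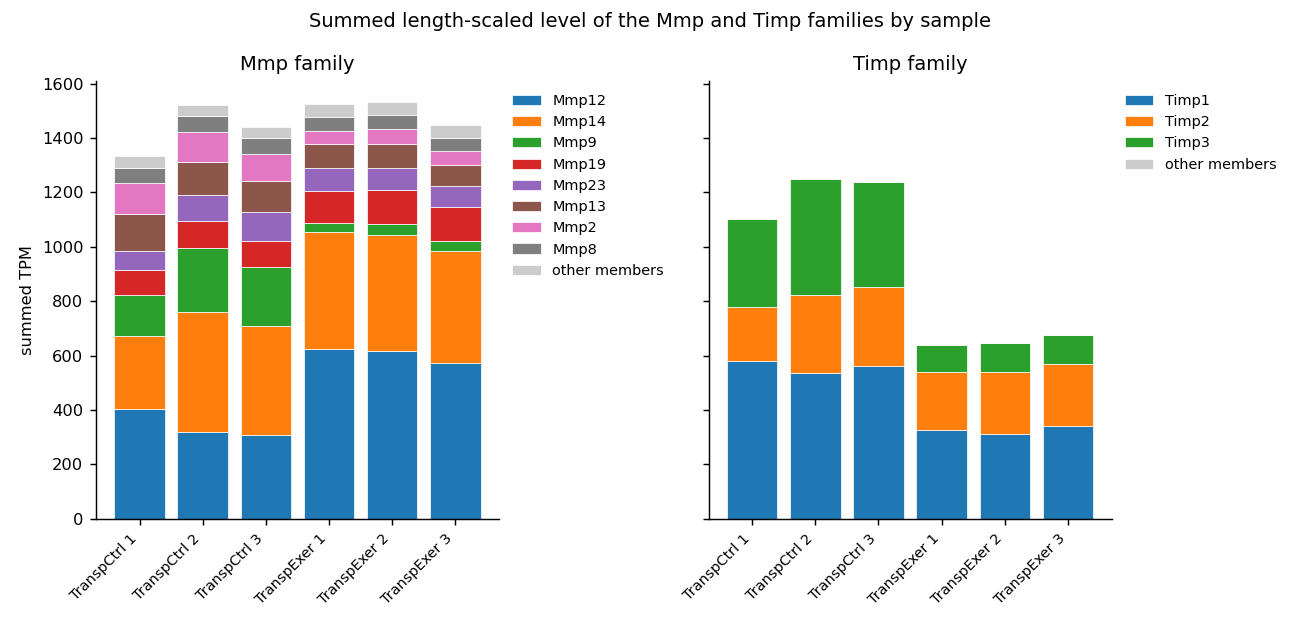
Summed TPM (linear axis) of the Mmp family and of the Timp family in each of the 6 samples, with the bars divided by gene. The Mmp sums overlap between groups while *Mmp12* expands and *Mmp9* shrinks in TranspExer, and all 3 Timp sums of TranspExer (639 to 675 TPM) lie below those of TranspCtrl (1101 to 1249 TPM).

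Both gelatinases, which digest denatured collagen and basement membrane collagen, were downregulated DEGs. *Mmp9* (ENSMUSG00000017737, chr2:164940780-164955850, plus strand) had 230, 346 and 333 CPM in TranspCtrl and 53.4, 59.2 and 57.2 CPM in TranspExer. It was 5.35-fold lower in TranspExer (log2FC -2.42, SE 0.16, adjusted p = 6.5e-05 from edgeR). *Mmp2* (ENSMUSG00000031740, chr8:92827291-92853420, plus strand) had 167, 162 and 152 CPM in TranspCtrl samples and 72.9, 81.5 and 73.9 CPM in TranspExer samples. Neither gene showed any overlap between groups, and *Mmp2* was 2.11-fold lower (log2FC -1.08, SE 0.08, adjusted p = 0.000105). Together, both genes summed to 464 ± 58.8 CPM in TranspCtrl and 133 ± 7.34 CPM (SD, n = 3 each) in TranspExer. Relative to the inhibitor it pairs with, *Mmp9* over *Timp1* was 0.262 to 0.434 in TranspCtrl and 0.104 to 0.125 in TranspExer, and *Mmp2* over *Timp2* was 0.357 to 0.574 and 0.217 to 0.241, all in TPM.

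*Mmp9* is known as an osteoclast and neutrophil product, so markers of these cells are given beside it. Of 8 osteoclast markers, 5 were downregulated DEGs (*Oscar*, *Calcr*, *Ctsk*, *Dcstamp* and *Acp5*) and 2 were upregulated DEGs (*Atp6v0d2* and *Itgb3*). *Oscar* and *Calcr* passed the low-count filter only because of the TranspCtrl samples. *Atp6v0d2* lay at the fold limit (log2FC 1.02) and missed it without TranspCtrl replicate 3 (0.9932), TranspExer replicate 1 (0.9862) or TranspExer replicate 2 (0.9996), and *Calcr* was below the filter without TranspCtrl replicate 3. Their summed level was 564 to 676 CPM in TranspCtrl and 534 to 547 CPM in TranspExer, and no marker was at 0 in either group. *Ctsk*, the collagen-degrading cathepsin of osteoclasts, had 190, 134 and 133 CPM in TranspCtrl and 28.4, 26.2 and 25.4 CPM in TranspExer (log2FC -2.51, SE 0.15, adjusted p = 5e-05). Of 8 neutrophil markers, none was a DEG, 1 rose and 2 fell, and their summed level was 4042, 2843 and 3209 CPM in TranspCtrl and 4131, 3908 and 3762 CPM in TranspExer. The overlap came from TranspCtrl replicate 1, and the other TranspCtrl samples were below all TranspExer samples. Without TranspCtrl replicate 1, 4 neutrophil markers rose and 1 fell. The part of these cells in the change of *Mmp9* was not tested.

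**Figure D3:**
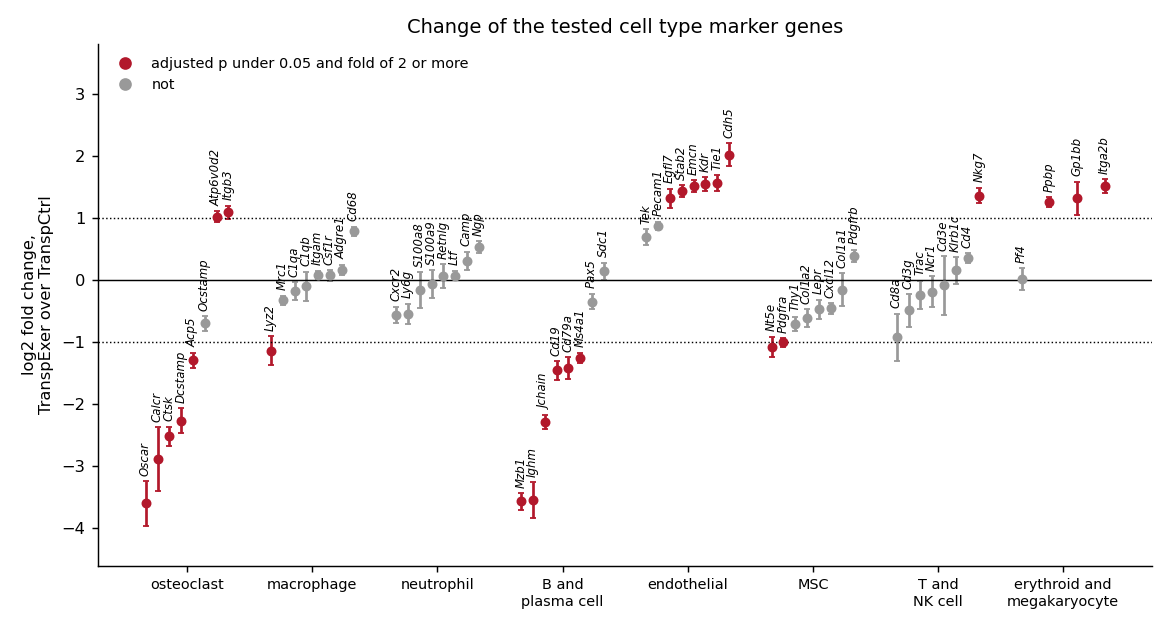
Log2 fold change (vertical axis, with SEs) of each tested marker gene in 8 cell type lists, with dotted lines at a fold change of 2. Osteoclast markers move in both directions, neutrophil markers stay within the dotted lines, and all 8 endothelial markers are higher in TranspExer.

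Of the collagenases, which cut fibrillar collagen, *Mmp13* fell and *Mmp8* did not pass. *Mmp13*, the collagenase of hypertrophic chondrocytes and osteoblasts, had 170, 149 and 146 CPM in TranspCtrl and 118.5, 115 and 101 CPM in TranspExer (log2FC -0.48, SE 0.10, adjusted p = 0.00836). *Mmp8*, the neutrophil collagenase, had 65.4, 65.7 and 68.4 CPM in TranspCtrl and 59.8, 61.7 and 59.5 CPM in TranspExer (log2FC -0.14, SE 0.07, adjusted p = 0.146). It fell with upper-quartile scaling (log2FC -0.22, adjusted p = 0.0387) and with library size only (-0.23, adjusted p = 0.0354), which moved the median of all genes from -0.02 to -0.10. *Mmp11* (stromelysin 3), which furin activates inside the cell, fell from 18.4 ± 1.2 CPM to 10.3 ± 0.489 CPM (SD, n = 3 each), a log2FC of -0.83 (adjusted p = 0.000899). It shares 155 exonic bases with *Chchd10* on the opposite strand, whose mean count was 126 against 285 for *Mmp11*. *Chchd10* had a log2FC of -0.86 (adjusted p = 0.127), close to that of *Mmp11*, and whether reads were shared was not tested. *Mmp3*, with 4 to 17 counts per sample, and *Mmp10*, with 2 to 9, were below the filter. *Mmp1a* and *Mmp1b* had at most 2 counts.

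*Mmp12* (ENSMUSG00000049723), the macrophage elastase, was the MMP with the largest mean TPM in TranspExer (605 ± 28 TPM, against 422 ± 10.2 TPM for *Mmp14*, SD, n = 3 each). In TranspCtrl *Mmp14* had the larger mean, with 370.2 ± 90.2 TPM against 343.5 ± 52.2 TPM (SD, n = 3 each), a difference within the SD of either gene. *Mmp12* had 694, 542 and 534 CPM in TranspCtrl and 1121, 1073 and 998 CPM in TranspExer, without overlap. It rose by 0.85 on the log2 scale (SE 0.12, adjusted p = 0.00179) and stayed below the fold change of 2, with 0.98 when TranspCtrl replicate 1 was left out. Of 8 macrophage markers, 1 rose and 2 fell, with a median log2FC of -0.02. *Lyz2* was a downregulated DEG (9102, 4895 and 5238 CPM against 3235, 2897 and 2596 CPM, log2FC -1.14). The call was lost without TranspCtrl replicate 1 (log2FC -0.80, adjusted p = 1.69e-06) or TranspExer replicate 3 (-1.08, adjusted p = 0.0506). *Mrc1* fell by 0.33 and *Cd68* rose by 0.78. *Adgre1*, *Csf1r*, *Itgam*, *C1qa* and *C1qb* had log2FCs of 0.16, 0.07, 0.07, -0.18 and -0.10, none of which passed. *Lyz2* set the direction of the summed macrophage level given above. The 7 other markers summed to 4673, 4007 and 3949 CPM in TranspCtrl and 4372, 4474 and 4416 CPM in TranspExer. The groups overlapped only through TranspCtrl replicate 1, and the other TranspCtrl samples were below all TranspExer samples. Without TranspCtrl replicate 1, 3 macrophage markers rose, 2 fell and none was a DEG. The part of macrophages in the change of *Mmp12* was not tested. *Mmp19* rose from 155 ± 6.78 CPM to 204 ± 1.21 CPM (SD, n = 3 each) (log2FC 0.40, adjusted p = 0.00543). It shares 789 exonic bases with *Tmem198b* on the opposite strand, which had a mean count of 404 against 3509 and a log2FC of 0.20 (adjusted p = 0.169). *Mmp27*, a relative of the stromelysins, had 10.4, 6.21 and 6.65 CPM in TranspCtrl and 16.2, 15.6 and 13.1 CPM in TranspExer (log2FC 0.94, SE 0.20, adjusted p = 0.0108). It was a DEG without TranspCtrl replicate 1 (log2FC 1.21, adjusted p = 8.49e-06 from edgeR) or without TranspExer replicate 3 (1.02, adjusted p = 0.0331), and did not pass without TranspExer replicate 1 or 2 (adjusted p = 0.0534 and 0.0503). *Mmp23* had 62.3 ± 12 CPM and 55.9 ± 3.26 CPM (SD, n = 3 each), and *Mmp28* 3.59 ± 0.301 CPM and 3.504 ± 0.294 CPM (SD, n = 3 each), and neither passed (adjusted p = 0.404 and 0.889). *Mmp28* shares 466 exonic bases with *1700020L24Rik* on the opposite strand (mean count 55 against 69.9), which had a log2FC of 1.24 (adjusted p = 0.00499). *Mmp21* had 1 count in 1 sample.

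Membrane-type MMPs, which act at the cell surface, differed in direction. *Mmp14* (ENSMUSG00000000957), the collagenase that also activates the MMP2 zymogen, had 333, 538 and 501 CPM in TranspCtrl and 551, 536 and 514 CPM in TranspExer. Only TranspCtrl replicate 1 lay clearly lower, and the difference did not pass (log2FC 0.22, SE 0.17, adjusted p = 0.332, or 0.04 and adjusted p = 0.605 without this sample). *Mmp15* (ENSMUSG00000031790, chr8:95352268-95375080, plus strand) was an upregulated DEG at a low level. Its values were 1.95, 4 and 4.37 CPM in TranspCtrl and 9.52, 10.2 and 10.7 CPM in TranspExer, a 2.95-fold difference without overlap (log2FC 1.56, SE 0.26, adjusted p = 0.00348). *Mmp16* (ENSMUSG00000028226, chr4:17852893-18119145, plus strand) was a downregulated DEG. It had 4.39, 6.78 and 5.58 CPM in TranspCtrl and 2.25, 2.21 and 2.24 CPM in TranspExer, with 90 to 132 and 38 to 45 counts (log2FC -1.32, SE 0.20, adjusted p = 0.00235). The 2 members that are tethered by a lipid anchor, *Mmp17* and *Mmp25*, rose by 0.56 and 0.60 on the log2 scale (adjusted p = 0.0358 and 0.0227). *Mmp17* did not pass without TranspExer replicate 1, 2 or 3 (adjusted p = 0.126, 0.065 and 0.0881), and *Mmp25* did not pass without TranspExer replicate 2 or 3 (adjusted p = 0.0716 and 0.0942). *Mmp24* had 1.04 counts in 1 sample.

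**Figure D4:**
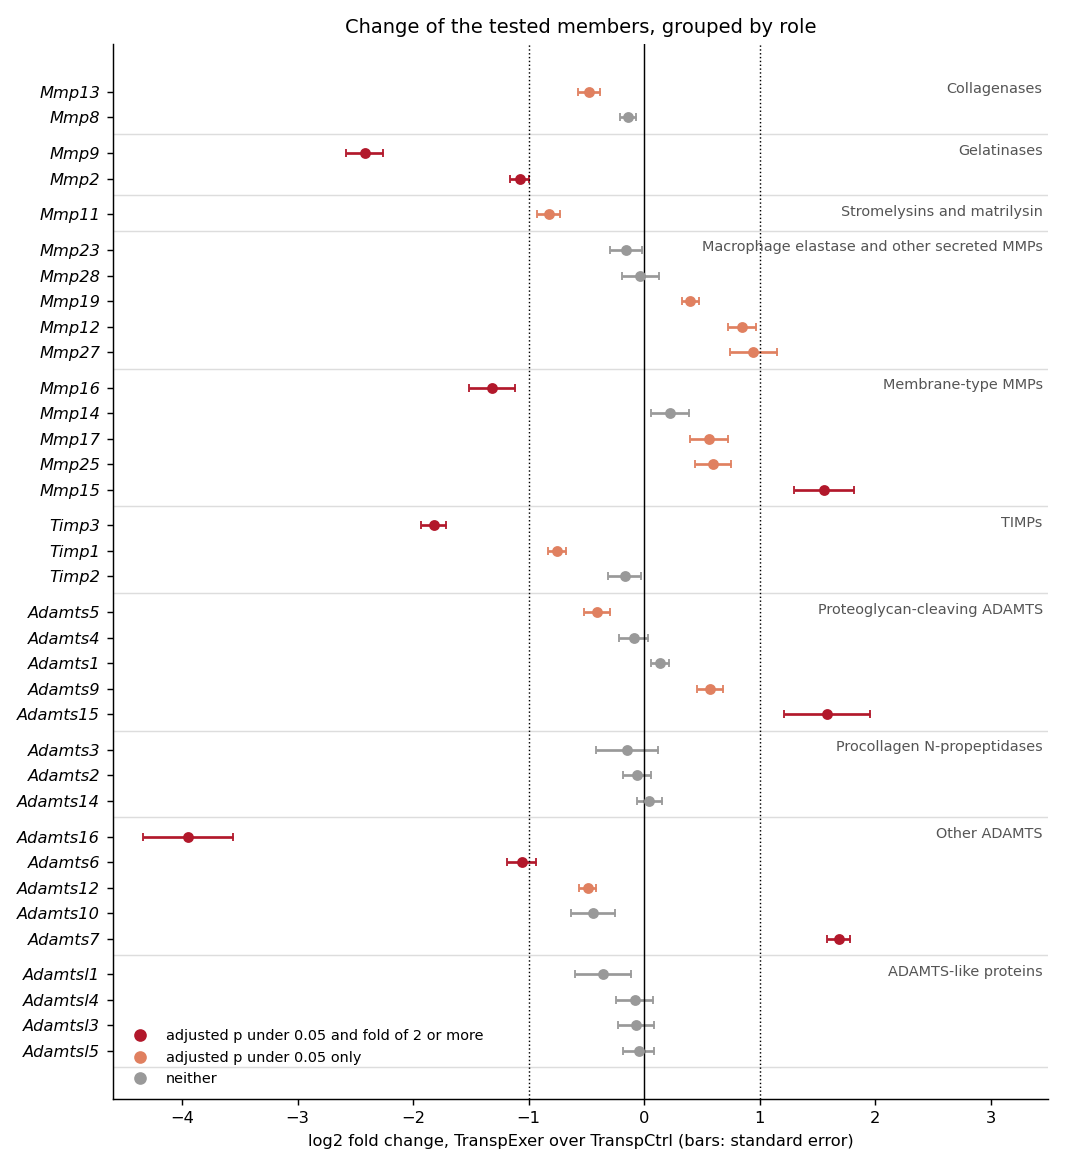
Log2 fold change of TranspExer over TranspCtrl (horizontal axis, bars for the SE) for the 35 tested members, grouped by role, with dotted lines at a fold change of 2. The gelatinases and TIMPs lie left of 0, and membrane-type MMPs and ADAMTS proteases lie on both sides.

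Among 10 *Mmp* genes that stand side by side on chromosome 9, within 427.1 kb at chr9:7272514-7699585 of GRCm38, levels ranged from no count to 1121 CPM. Of these, 4 were tested. Neighbours moved in different directions, as *Mmp13* fell, *Mmp12* rose at a distance of 71.9 kb, *Mmp8* did not pass and *Mmp27*, the next gene, rose. Their RefSeq promoters (build GRCm38.p6, windows of 300 bases from 250 before the start site) were searched on both strands for TGANTCA, the site that AP-1 is known to bind, and for TATAAA. The AP-1 motif was found in 8 of the 10 cluster genes, and in none of the 26 other members with a promoter sequence. Counted by window, since some genes have more than 1 start site, it was in 8 of 12 cluster windows, 20.5% of the 39 member windows and 7.81% of all 32851 windows. TATAAA was found in 9 of the 12 cluster windows (9 of 10 genes), in 30.8% of member windows and in 13.6% of all windows. The 150 bases before the start site are shown for cluster genes with counts in all samples, because they differ in this motif and in direction of change. Capitals mark TGANTCA and TATAAA, the sequence is that of the coding strand, and for *Mmp12* the second of its RefSeq start sites is shown, since the window of the first holds no AP-1 motif.
*Mmp13*, chr9:7272364-7272513, + strand: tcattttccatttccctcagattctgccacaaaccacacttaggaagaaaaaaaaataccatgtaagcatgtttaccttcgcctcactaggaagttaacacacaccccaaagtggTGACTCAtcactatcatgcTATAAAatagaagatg
*Mmp12*, chr9:7347224-7347373, + strand: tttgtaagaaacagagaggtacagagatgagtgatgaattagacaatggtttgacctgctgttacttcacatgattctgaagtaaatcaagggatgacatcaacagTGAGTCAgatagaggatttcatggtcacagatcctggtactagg
*Mmp3*, chr9:7445672-7445821, + strand: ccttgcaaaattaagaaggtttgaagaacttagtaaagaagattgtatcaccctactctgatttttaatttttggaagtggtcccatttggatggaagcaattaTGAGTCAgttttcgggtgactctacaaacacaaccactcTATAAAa
*Mmp10*, chr9:7502192-7502341, + strand: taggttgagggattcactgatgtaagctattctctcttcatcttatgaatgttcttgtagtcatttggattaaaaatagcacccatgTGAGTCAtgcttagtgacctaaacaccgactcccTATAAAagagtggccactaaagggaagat
*Mmp8*, chr9:7558279-7558428, + strand: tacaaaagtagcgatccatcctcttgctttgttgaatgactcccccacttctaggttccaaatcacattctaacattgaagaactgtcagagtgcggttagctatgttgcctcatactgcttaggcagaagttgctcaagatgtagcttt
*Mmp27*, chr9:7571246-7571395, + strand: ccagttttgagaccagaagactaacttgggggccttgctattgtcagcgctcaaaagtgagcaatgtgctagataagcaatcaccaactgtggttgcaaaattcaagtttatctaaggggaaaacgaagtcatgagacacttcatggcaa

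The AP-1 match began 35 bases before the start site in *Mmp13*, 44 in *Mmp12*, 46 in *Mmp3* and 63 in *Mmp10*. It was present in *Mmp13*, which fell, and in *Mmp12*, which rose, and it was not found in the windows of *Mmp8* and *Mmp27*. A match of letters is a description and does not show binding. Of the AP-1 genes, *Fos*, *Fosl1* and *Jun* rose by 0.69, 0.81 and 0.41 on the log2 scale (adjusted p = 0.000683, 0.00497 and 0.0121), and *Fosb*, *Fosl2*, *Junb* and *Jund* did not pass. Without TranspCtrl replicate 1, *Fosl2* and *Jund* fell by 0.55 and 0.32 on the log2 scale (adjusted p = 9.4e-06 and 0.0238). By contrast the promoter of *Timp3* held neither motif but held GGGCGG, a site that SP1 is known to bind, which 35.7% of all windows and 56.4% of member windows also held. It is shown over the same 150 bases, with this motif in capitals as it reads on the coding strand.
*Timp3*, chr10:86300262-86300411, + strand: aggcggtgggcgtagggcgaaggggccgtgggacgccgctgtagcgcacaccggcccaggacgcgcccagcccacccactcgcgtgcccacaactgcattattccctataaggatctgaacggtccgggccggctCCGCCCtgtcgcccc

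**Figure D5:**
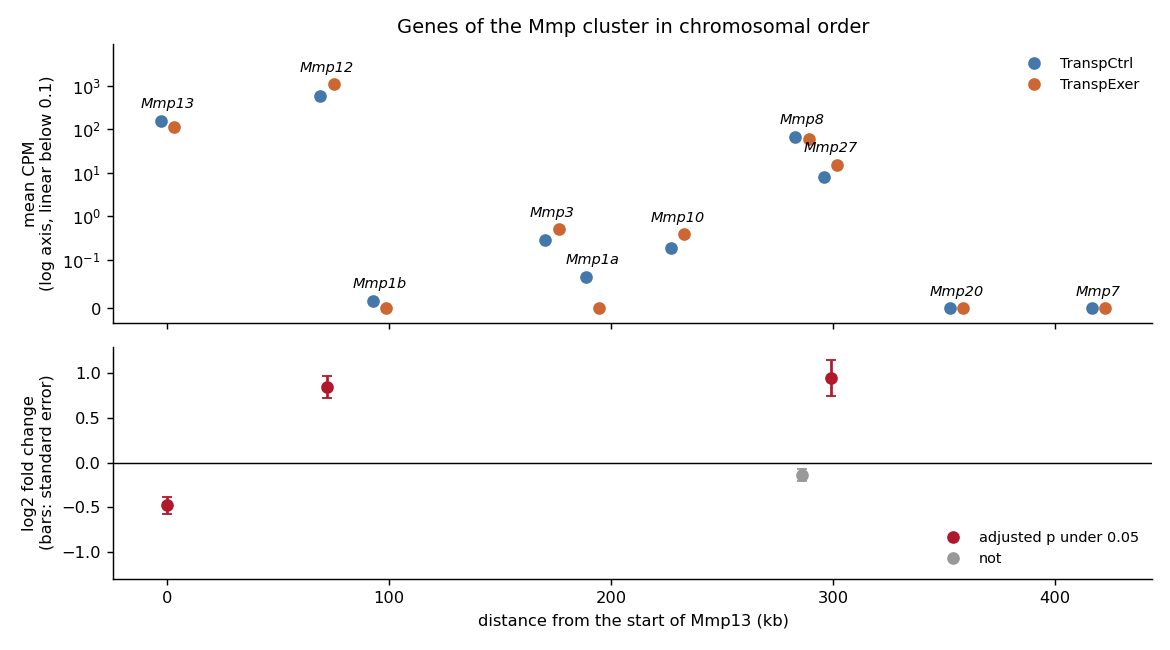
Genes of the chromosome 9 cluster by distance from the start of *Mmp13* (kb). The upper panel gives the mean CPM of each group (log axis, linear below 0.1), and the lower panel the log2FC with its SE for the 4 tested genes, in red where the adjusted p-value was under 0.05. *Mmp12* and *Mmp27* lie above 0 and *Mmp13* below.

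For the ADAMTS proteases the summed level overlapped between groups. It was 474 ± 28.7 CPM in TranspCtrl and 442 ± 17.2 CPM (SD, n = 3 each) in TranspExer. Of 13 tested genes, 3 rose and 4 fell, with 2 DEGs in each direction. Within the family *Adamts2* was the largest component in TPM, with 26.7% ± 3.6 of the sum in TranspCtrl and 26.8% ± 0.573 (SD, n = 3 each) in TranspExer, followed by *Adamts1* with 21.6% ± 1.56 and 24.8% ± 0.562 (SD, n = 3 each). In TranspCtrl replicate 1 the order was the other way round, with 22.55% for *Adamts2* and 23.33% for *Adamts1*.

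Proteoglycan-cleaving members (the aggrecanases and versicanases) were mixed. *Adamts15* (ENSMUSG00000033453, chr9:30899155-30922452, minus strand) was an upregulated DEG at a very low level, with 7, 9 and 17 counts in TranspCtrl and 22, 32 and 37 counts in TranspExer. It passed the low-count filter only because of the TranspExer samples. The groups did not overlap (log2FC 1.58, SE 0.37, adjusted p = 0.0149), but the call was lost without TranspExer replicate 2 or replicate 3 (adjusted p = 0.0621 and 0.0663). *Adamts9*, a versicanase, rose from 11.9 ± 0.708 to 17.7 ± 1.86 CPM (SD, n = 3 each) (log2FC 0.57, adjusted p = 0.00768), and shares 1381 exonic bases with *A730049H05Rik* on the opposite strand (mean count 10.9 against 289, log2FC 1.31, adjusted p = 0.0516). *Adamts5*, the main aggrecanase of mouse cartilage, had 67.7, 89.4 and 85.1 CPM in TranspCtrl and 57.6, 61.3 and 64 CPM in TranspExer, and fell by 0.40 on the log2 scale (adjusted p = 0.0281). It passed without TranspCtrl replicate 1 (adjusted p = 2.23e-05) and did not pass when any 1 of the other 5 samples was left out (adjusted p = 0.0604 to 0.0933). Its chromosomal neighbour *Adamts1* had 77 ± 4.44 and 84.7 ± 2.09 CPM (SD, n = 3 each), and *Adamts4* 19.4 ± 1.9 and 18.2 ± 2.31 CPM (SD, n = 3 each), and neither passed (adjusted p = 0.191 and 0.6). Among their substrates, *Vcan* (versican) had 228, 229 and 207 CPM in TranspCtrl and 77.7, 89 and 89.7 CPM in TranspExer (log2FC -1.37, SE 0.09, adjusted p = 6.6e-05), while *Acan* (aggrecan) was below the filter with at most 0.756 CPM in any sample.

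The 3 procollagen N-propeptidases, which trim the amino-terminal ends of fibrillar procollagens, gave no call. *Adamts2* had 115, 156.5 and 154 CPM in TranspCtrl and 132, 141 and 136 CPM in TranspExer (log2FC -0.06, SE 0.12, adjusted p = 0.73). *Adamts14* and *Adamts3* had log2FCs of 0.04 and -0.15 (SEs 0.11 and 0.27). *Adamts14* had the opposite sign when counts were scaled by the upper quartile or by library size only.

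The largest fold change of all tested members was that of *Adamts16*. *Adamts16* (ENSMUSG00000049538, chr13:70727802-70841811, minus strand) had 63, 56 and 37 counts in TranspCtrl and 3 counts in each TranspExer sample, the floor used here. It passed the low-count filter only because of the TranspCtrl samples, so its test result is no more than a description. The ratio of TranspCtrl to TranspExer over the pooled counts (156 and 9) was 15.9, with a 95% interval from 8.17 to 35.5 that covers counting error only (exact binomial), and the adjusted p-value was 0.000345 from edgeR. *Adamts7* (ENSMUSG00000032363, chr9:90163069-90208071, plus strand), a protease of cartilage oligomeric matrix protein, was an upregulated DEG. It had 7.91, 9.04 and 8.32 CPM in TranspCtrl and 26.7, 28.6 and 25.8 CPM in TranspExer, 3.21-fold more (log2FC 1.68, SE 0.10, adjusted p = 4.7e-05). *Adamts7* shares 122 exonic bases with *Tbc1d2b* on the opposite strand, which has a mean count of 2425 against 340 and a log2FC of 0.06 (adjusted p = 0.576). *Adamts12*, its closest relative and a protease of the same substrate, fell instead, from 76.7, 78 and 75 CPM to 51.9, 53.9 and 57.8 CPM (log2FC -0.49, SE 0.07, adjusted p = 0.00233). The substrate gene *Comp* had at most 0.83 CPM in any sample.

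*Adamts6* (ENSMUSG00000046169, chr13:104287835-104496695, plus strand) had 17.63, 16.3 and 19 CPM in TranspCtrl and 7.32, 9.59 and 8.49 CPM in TranspExer. It was 2.08-fold lower (log2FC -1.06, SE 0.13, adjusted p = 0.000842), the smallest change of any DEG among the members, and at -0.97 without TranspExer replicate 1 it missed the fold change of 2. Its paralog *Adamts10*, which is known to act on fibrillin microfibrils, had 28.4, 17.9 and 17.3 CPM in TranspCtrl and 15, 15.6 and 16.2 CPM in TranspExer. TranspCtrl replicate 1 was the high sample, and the difference did not pass (log2FC -0.44, adjusted p = 0.109, or -0.18 and adjusted p = 0.145 without this sample). The fibrillin genes *Fbn1* and *Fbn2* fell by 0.89 and 1.92 on the log2 scale (adjusted p = 0.000596 and 7.6e-05), the second as a DEG. *Adamts13*, the protease of von Willebrand factor, had at most 2.01 counts per sample, while its substrate *Vwf* had 13.9, 22.9 and 24.6 CPM in TranspCtrl and 65, 72.7 and 77.7 CPM in TranspExer (log2FC 1.81, adjusted p = 0.000495). *Vwf* is an endothelial gene, and 6 of the 8 endothelial markers were upregulated DEGs. Of 4 tested erythroid and megakaryocyte markers, 3 were upregulated DEGs as well (*Itga2b*, *Gp1bb* and *Ppbp*), and *Pf4* did not pass. The part of any of these cells in the change of *Vwf* was not tested.

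ADAMTSL genes gave no call. Of 5 genes 4 were tested, and all 4 had log2FCs between -0.36 and -0.05 with adjusted p-values of 0.284 to 0.8. The summed level was 39.2, 55.9 and 51.4 CPM in TranspCtrl and 46, 48.1 and 43.9 CPM in TranspExer. *Adamtsl4*, a microfibril-associated protein, made up 68.7% ± 4.41 and 68.9% ± 1.53 (SD, n = 3 each) of the family in TPM, and had 27.25, 43.4 and 38.5 CPM in TranspCtrl and 33.8, 36.5 and 32.7 CPM in TranspExer.

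Members near the thresholds can be read from the same values. *Adamts6* and *Mmp2*, with fold changes of 2.08 and 2.11, lay just inside the fold limit, and *Mmp27* and *Mmp12*, with 1.92 and 1.8, just outside. For the adjusted p-value, *Mmp17* was the last member inside (0.0358) and *Adamts10* the first outside (0.109). Without TranspCtrl replicate 1, all 9 DEGs were kept and *Mmp27* was added, 28.6% of members against 8.27% of all genes in that fit. At the adjusted p-value alone, 26 members passed in place of 20, which is 74.3% of members against 41.7% of all genes. The 20 were kept, and *Timp2*, *Mmp8*, *Mmp23*, *Adamts1*, *Adamts2* and *Adamtsl4* were gained. Their log2FCs in that fit lay between -0.33 (*Timp2*) and 0.17 (*Adamts1*), all far below a fold change of 2.

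Outside the 4 families, 85 genes of the same pathways were read from 6 lists, of which 72 were tested, 6 were upregulated DEGs and 9 downregulated DEGs (*Ctsk*, given above, is also an osteoclast marker). These are 8.33% and 12.5% of them, against 3.5% and 5.28% of all tested genes. At the adjusted p-value alone 58.3% passed, against 32.2%, and by list the share ranged from 33.3% for ADAM sheddases and 38.5% for the other activators, clearance receptors and inhibitors, both near that of all genes, to 80% for plasminogen activation and for procollagen processing. Among 10 tested genes of plasminogen activation, which switches on several MMP zymogens, 5 rose, 3 fell and 1 was a DEG. *Plau*, the urokinase activator, rose from a mean of 158 CPM to a mean of 299.5 CPM (log2FC 0.92, adjusted p = 0.000503), and *Tfpi2*, an inhibitor of plasmin, was the DEG (9.42, 8.01 and 9.48 CPM against 26.4, 23.5 and 22.1 CPM, log2FC 1.42, adjusted p = 0.000146). Of 13 other activators, clearance receptors and inhibitors of MMPs, 2 rose and 3 fell. *Thbs2*, a secreted protein that promotes the uptake of MMP2, was a downregulated DEG (1722, 1889 and 1784 CPM against 634.5, 671 and 669 CPM, log2FC -1.45, adjusted p = 4.7e-05). *A2m*, a general protease trap, was the other DEG, with 77 pooled counts in TranspCtrl and 2 in TranspExer, a ratio of 35.4 (95% interval 9.46 to 297, counting error only). It passed the low-count filter only because of the TranspCtrl samples. *Bsg*, a surface protein known to induce MMPs, fell by 0.90 without reaching a fold of 2 (adjusted p = 0.000619), and *Reck*, a membrane-bound MMP inhibitor, had a log2FC of -0.14 (adjusted p = 0.513).

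Among 12 tested ADAM genes 3 rose, 1 fell and *Adamdec1* was the DEG (log2FC -1.15, adjusted p = 0.0188). It had 9 to 28 counts per sample, and the call was lost without TranspCtrl replicate 2 (adjusted p = 0.0541) or TranspExer replicate 1, 2 or 3 (adjusted p = 0.0729, 0.0593 and 0.065). The ADAM genes that rose were *Adam8*, *Adam10* and *Adam12*, with log2FCs of 0.83, 0.40 and 0.48 (adjusted p = 0.000938, 0.0186 and 0.00668 from edgeR). *Adam17*, the sheddase of TNF that TIMP3 inhibits, had 148, 163 and 156 CPM in TranspCtrl and 160.2, 166.5 and 176.5 CPM in TranspExer (log2FC 0.11, adjusted p = 0.327). Of 10 tested genes for procollagen processing and ADAMTS substrates, 3 rose and 5 fell. *Pcolce*, the enhancer of the procollagen C-proteinase, was a downregulated DEG (310, 324 and 328 CPM against 145.5, 146 and 135 CPM, log2FC -1.17, adjusted p = 6.5e-05), with *Vcan* and *Fbn2*. *Tll1* and *Vwf* were upregulated DEGs. Of 13 other matrix-degrading enzymes, 6 rose and 4 fell. The serine proteases *Elane*, *Ctsg* and *Prtn3* of myeloid primary granules were upregulated DEGs with log2FCs of 2.16, 1.88 and 1.79 (adjusted p = 0.000105, 4.5e-05 and 2.4e-05). *Ctsk*, *Htra1* and *Mme* were downregulated DEGs with -2.51, -1.12 and -1.09 (adjusted p = 5e-05, 0.000304 and 8.8e-05). Of the 14 transcription factor genes of the AP-1, ETS, RUNX and NF-kB families, 7 rose, none fell and none was a DEG, but without TranspCtrl replicate 1, 8 rose and 3 fell (*Fosl2*, *Jund* and *Runx2*). In the other 5 lists, the genes that rose and fell without this sample numbered 6 and 3 of 10 for plasminogen activation and 3 and 4 of 13 for other activators and inhibitors. They numbered 3 and 2 of 12 for ADAM genes, 3 and 6 of 10 for procollagen processing and 6 and 5 of 13 for other enzymes. In that fit 41.7% of all genes passed at the adjusted p-value alone, and the ADAM genes passed at about that share. *Serpinb2* then was an upregulated DEG (log2FC 1.02) and *Spock2* a downregulated DEG (-1.72).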

How the data were processed

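BM MSC transcriptomes of 3 TranspCtrl and 3 TranspExer samples were used, with groups taken from the sample labels. The authors deposited 1 table of estimated counts (expected counts, not normalized) with gene lengths. Per sample, 10.1% to 12.2% of genes carry a fractional estimate, so counts were rounded before testing. The submitters' processing notes name mm10. The aligner, counter and use of strand are not given in the sources used here. Library kits differ by source: a stranded mRNA kit in the labels, TruSeq in the paper.

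The model was fitted to all genes with edgeR 4.0.16 in R 4.3.3 (filterByExpr, TMM, quasi-likelihood F test, group only), and Benjamini-Hochberg adjusted p-values cover 15190 genes. A DEG needed an adjusted p-value below 0.05 plus a fold of 2 or more, as in the paper's methods. CPM were TMM-scaled, and TPM came from the deposited counts and lengths. The SE of a log2 fold change is its size divided by the square root of F. For a single gene, exact permutation of 6 samples gives no two-sided p under 0.1.

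Named were members that are DEGs or average at least 10 CPM, all TIMPs, members near a threshold, and up to 4 DEGs per pathway list with the smallest adjusted p-value. Other genes named were chosen after their values were seen. Members and lists were chosen with earlier results of these data known. Alternatives were DESeq2 1.42.0, other scalings and filters, the replicate number as a block, a test against the fold limit and each sample left out. Marker sums without their dominant genes, and list counts without TranspCtrl replicate 1, were added after seeing the data. All 51 members were found in GENCODE M21 (GRCm38), which gave positions and overlaps, and 36 had a RefSeq promoter. Tests were checked on simulated data.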

Additional observations from a re-analysis of the deposited data

How the results depend on the processing

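The counts of 3 upregulated and 6 downregulated DEGs among the members were the same with DESeq2, upper-quartile scaling, library size only, both other filters and the replicate number as a block. When the model tested against the fold limit of 2, they were 1 and 3 (*Adamts7*, and *Mmp9*, *Timp3* and *Adamts16*), and 5 pathway genes outside the families were downregulated in place of 9. That setting asks for more than the 2 thresholds do. With each sample left out, upregulated DEGs numbered 2 to 4 and downregulated DEGs 5 or 6. The log2 ratios of the summed Adamts and Mmp levels were -0.10 and 0.15, against -0.179 and 0.0751 with upper-quartile scaling and -0.186 and 0.0677 with library size only, where the median of all genes was -0.10 and -0.10 in place of -0.02. Signs were reversed only for genes with no call. *Adamts14* (0.04) had -0.0326 and -0.0398 with these scalings. With each sample left out it ranged from -0.0167 to 0.13, *Adamts2* from -0.19 to 0.0196, *Adamts3* from -0.26 to 0.0253, *Adamtsl3* from -0.13 to 0.0016, *Adamtsl4* from -0.25 to 0.0653, *Adamtsl5* from -0.11 to 0.006 and *Mmp28* from -0.10 to 0.0327. The Adamtsl sum ranged from -0.22 to 0.02. The replicate block gave 3 and 6 DEGs, and at the adjusted p-value alone *Mmp17* was lost (0.0542). *Mmp8* passed with the 2 other scalings (0.0387 and 0.0354). No pairing of samples with equal numbers was seen. The correlations of their deviations over all genes were 0.0247, -0.00167 and 0.0416, and 1 of 3 TranspCtrl samples correlated best with its own number. With 3 samples per group this cannot exclude a pairing. Genes near the floor of 3 counts are limited by depth.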
